A study of Mus musculus with 20 samples.

Results

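A set of 8 genes of the interleukin-1 family was followed in mouse hair follicle stem cells, across diet, age and hair cycle phase: the cytokines Il1b, Il18, Il33 and Il1f8, the antagonist Il1rn, the receptor Il1r1, its partner chain Il1rap and the decoy receptor Il1r2. Members were the probes whose transcript accession maps to 1 of these 8 symbols. They came to 14 probes for 8 genes, of 22911 genes that the array covers by accession, and the brightest probe spoke for each gene. All 8 were among the 18727 genes tested. RNA came from male mice and each of the 20 samples was hybridised to 1 single-colour array. Mice of 5 months had been fed a normal diet (ND 3M) or a high fat diet (HFD 3M) for 3 months, mice of 2 months had been fed either diet for 4 days (ND 4d, HFD 4d), and the aged mice were 24 months old, with no diet in their labels. Each of the 5 conditions had 3 telogen arrays (resting follicles) and 1 anagen array (growing follicles). The labels list the replicates as samples without tying them to different animals, and the p-values below cover only the spread among such samples, which may be technical. Strain, diet composition and the way the cells were isolated are not given in the sources used here.

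Interleukin-1 cytokines are released by keratinocytes and immune cells and act through receptors that share a cytoplasmic Toll/interleukin-1 domain. Il1r1 binds the cytokine and recruits Il1rap, and together they signal through Myd88 and the Irak kinases to NF-kappaB and the stress kinases. The pathway carries its own brakes: Il1rn occupies Il1r1 without signalling, and Il1r2 binds the cytokine but lacks the signalling domain. Il18 uses a receptor of its own, Il33 signals through Il1rl1 with Il1rap as co-receptor, and Il1f8, now called Il36b, is an epidermal cytokine that also needs Il1rap. Il1b and Il18 are made as precursors that caspase-1 cleaves in the inflammasome. In skin the family is known for its part in wound repair, barrier defence and inflammatory disease.

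All 8 members matched the RefSeq promoter table (GRCm38.p6), with 12 windows of 250 bases upstream of a transcript start. Windows are printed for 3 genes. Il1b had an adjusted p below the threshold between anagen and telogen. Il1f8 is described in that comparison without a test, and Il1r2 had the smallest p of the members in the diet comparison. Capitals mark a match to TATAAA or to TGANTCA, the site of AP-1 factors, on either strand; an NF-kappaB site was also searched, by name, and the matches of the 3 motifs did not overlap in these windows. The 3 lie at chr2:129371140-129371389 (minus strand), chr2:24152922-24153171 (plus strand) and chr1:40085843-40086092 (plus strand).
Il1b: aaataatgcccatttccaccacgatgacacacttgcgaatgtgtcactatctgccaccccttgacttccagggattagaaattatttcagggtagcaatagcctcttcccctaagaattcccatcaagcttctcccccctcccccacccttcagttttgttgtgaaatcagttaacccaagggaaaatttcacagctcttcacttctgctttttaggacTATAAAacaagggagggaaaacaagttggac
Il1f8: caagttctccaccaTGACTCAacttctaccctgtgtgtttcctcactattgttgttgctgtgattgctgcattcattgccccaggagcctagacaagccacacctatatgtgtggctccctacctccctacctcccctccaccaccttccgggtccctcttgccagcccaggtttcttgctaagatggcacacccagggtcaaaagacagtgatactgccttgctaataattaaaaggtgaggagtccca
Il1r2: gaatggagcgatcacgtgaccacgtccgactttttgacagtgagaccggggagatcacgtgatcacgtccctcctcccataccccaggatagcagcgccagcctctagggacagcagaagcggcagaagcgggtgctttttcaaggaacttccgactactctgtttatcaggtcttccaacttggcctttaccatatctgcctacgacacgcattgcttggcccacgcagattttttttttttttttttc

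The Il1b window holds a TATAAA that begins 31 bases before the start. The Il1f8 window holds a TGANTCA 236 bases before it, and the Il1r2 window holds none of the 3 motifs. Among the 12 member windows TATAAA was found in 4 (Il1b, Il18 and both windows of Il33), TGANTCA in 2 (Il1f8 and 1 window of Il1rn) and the NF-kappaB motif in 1, the second window of Il1r1. Of 32851 windows of the same length in the table, 12.4%, 6.75% and 7.25% hold these motifs. A match describes the letters of the window and says nothing of a factor bound there.

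The share of spots well above background ran from 60.7% to 83.5% over the arrays; this is the scanner software's call for a spot brighter than its surroundings. Correlations between telogen arrays of a group ran from 0.871 to 0.928. HFD 3M telogen replicate 3 stood apart on the second principal component, at 130.1 against 38.6 for the next array, so the 3-month diet results are also given without it. The 8 follicle stem cell markers were well above background on all 20 arrays. Of the 12 markers of macrophages and Langerhans cells, which also make Il1b, 7 were well above background on all 20 arrays, among them Cd207 and Cd74, while Ptprc was so on 7 and Adgre1 on 3. Column 1 of each slide held only anagen arrays and the other columns only telogen arrays, so phase and column cannot be told apart. On their shared slide HFD and ND telogen arrays lay in different rows, and these 2 factors cannot be told apart either.

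Levels are given as log2 of the processed intensity minus the array's 75th percentile, so a level of 0 lies at that percentile. Il1b, Il1rn, Il1r1, Il1rap and Il1r2 were well above background on all 20 arrays, Il33 on 19 and Il18 on 18. Il1f8 was so on 8 arrays, 4 of 15 in telogen and 4 of 5 in anagen, and it was tested only because of the anagen arrays. When each gene's 5 telogen means were put in order, few neighbours differed by more than the larger of their standard deviations (SD). For Il1b, HFD 4d stood 0.57 above ND 4d, against an SD of 0.55. For Il1r2, aged stood 0.82 above ND 3M and HFD 3M stood 1.45 above aged, against an SD of 0.77. No other neighbours in any member's order were separated beyond their spread.

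**Figure D1:**
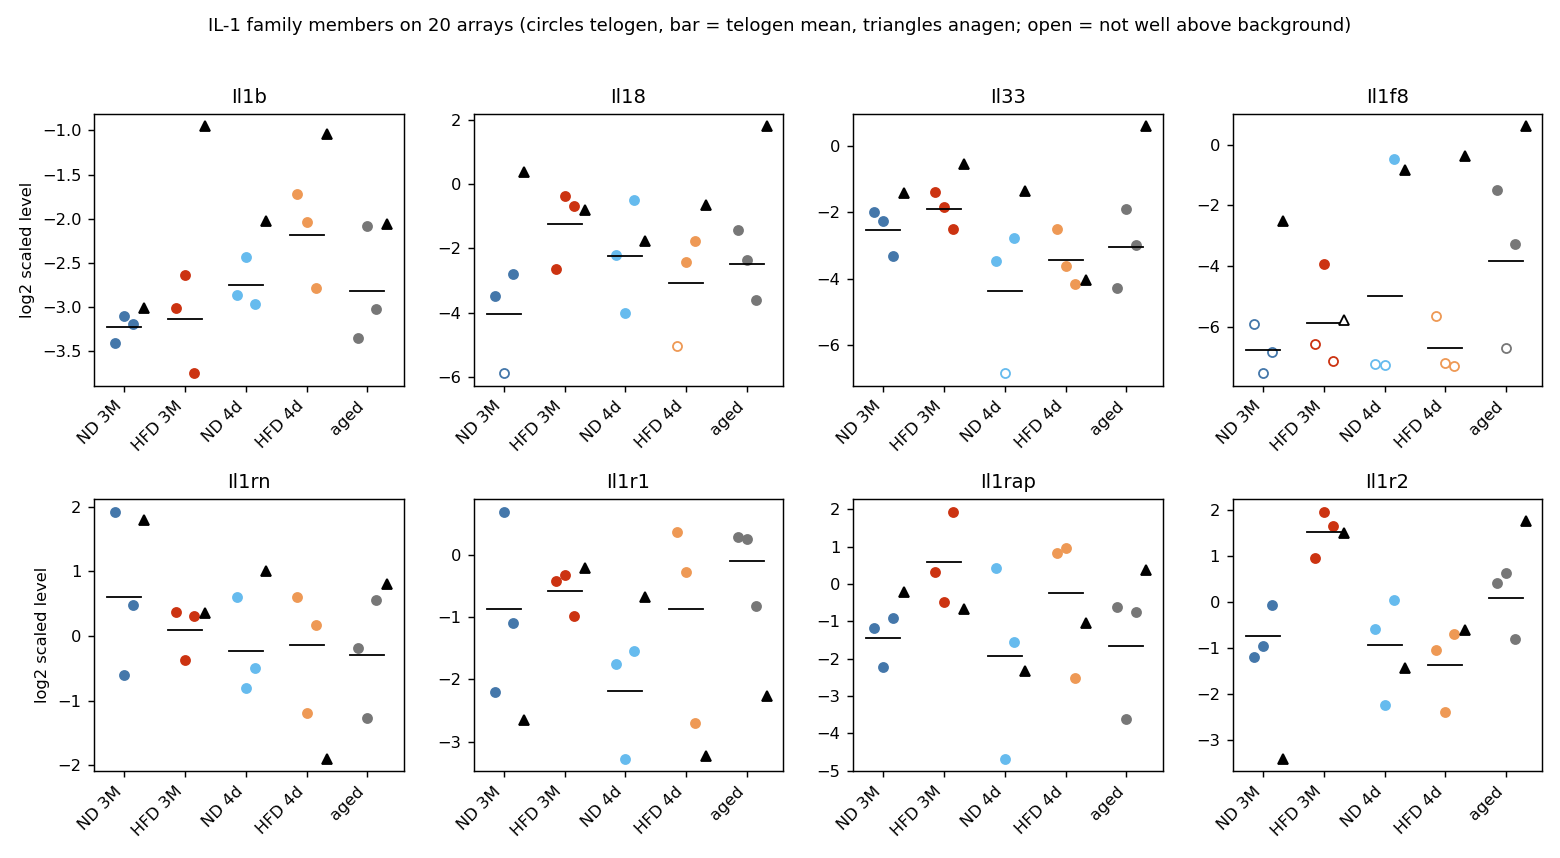
Log2 scaled level (y axis) of the 8 members in each condition (x axis; ND normal diet, HFD high fat diet, 3M for 3 months, 4d for 4 days). Circles are the 3 telogen arrays, bars their mean and triangles the single anagen array; open symbols are not well above background. The Il1b triangle lies above all 3 telogen circles in each of the 5 conditions, and Il1r2 is higher on the 3 HFD 3M than on the 3 ND 3M telogen arrays.

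The 3-month diet comparison asks which members differ in stem cells of mice on a prolonged high fat diet. None of the 8 passed limma's test at an adjusted p of 0.05, where the share of all genes called was 0 (percent of 18727), and 2 of 8 had an unadjusted p below 0.05, against 730 of all genes. The decoy receptor Il1r2, the cytokine Il18 and the co-receptor Il1rap had higher values on every HFD than on every ND array. That is 3 of 8 members, where 4.15% of all genes had groups apart in this direction. The members had a median log2 difference of 0.75, with 7 of 8 above 0, against -0.04 over all genes tested.

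Il1r2, the brake that traps interleukin-1 at the cell surface, stood at -1.20, -0.97 and -0.07 on the 3 ND 3M telogen arrays and at 0.95, 1.96 and 1.65 on the 3 HFD 3M arrays. The groups did not overlap, and the HFD arrays were also the 3 highest of the 15 telogen arrays. HFD exceeded ND by 2.27 ± 0.64 (log2, SE; 95% interval 0.87 to 3.66), with an unadjusted limma p of 0.00396 and an adjusted p of 1.00. Without HFD replicate 3 the difference was 2.20.

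A second probe of the same Il1r2 transcript did not show this difference. It read -1.05, -1.79 and 1.06 on the ND 3M arrays and -0.95, 1.102 and -1.99 on the HFD 3M arrays, so its groups overlapped. Its difference was -0.02 ± 1.70 (95% interval -3.72 to 3.68), which includes the value of the first probe, and its SE was wider. That probe was well above background on 19 of 20 arrays, and its correlation with the brighter probe over the 20 arrays was 0.45. With the mean of both probes the Il1r2 difference was 1.12.

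**Figure D2:**
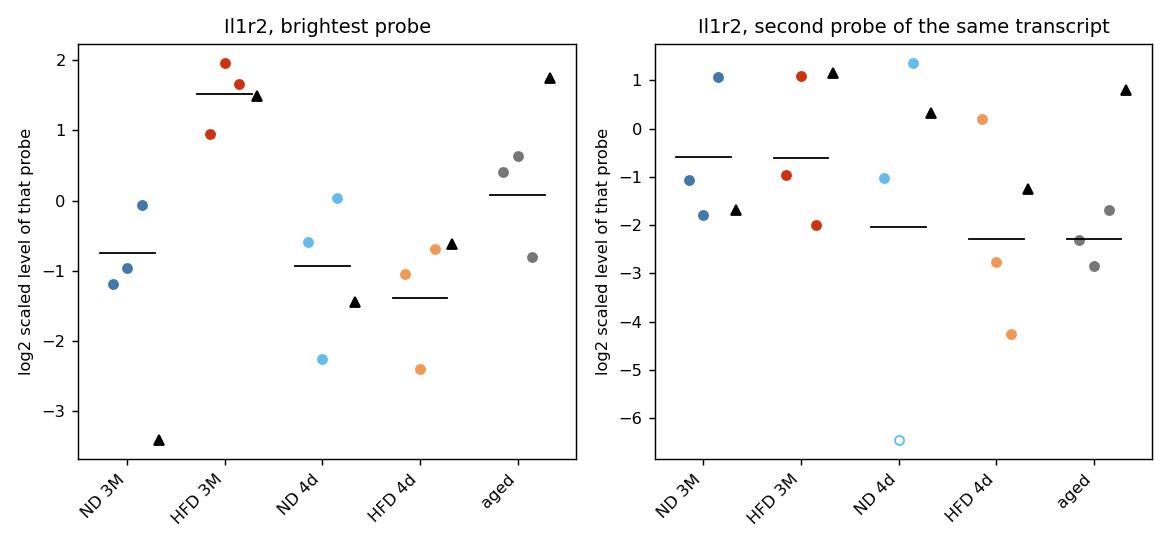
Log2 scaled level (y axis, each probe on its own scale) of the 2 Il1r2 probes by condition (x axis). Circles are telogen arrays, bars their mean, triangles anagen arrays, and open symbols are not well above background; the HFD 3M telogen circles lie above the ND 3M circles for the brightest probe (0.95 to 1.96 against -1.20 to -0.07) and overlap them for the second (-1.99 to 1.102 against -1.79 to 1.06).

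Il18, a cytokine that epidermal cells store as a precursor, was at -3.46, -5.88 and -2.80 on the ND 3M arrays, of which the second was not well above background. The HFD 3M arrays read -2.63, -0.37 and -0.69. HFD replicate 1 lay just above the highest ND array, and replicates 2 and 3 lay far above it. The difference was 2.82 ± 1.13 (unadjusted p 0.0279, adjusted p 1.00), and 2.55 without HFD replicate 3. Without ND replicate 2, the array not well above background, it was 1.90 (unadjusted p 0.131).

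Il1rap, the chain that receptors for interleukin-1, Il33 and Il1f8 share, read -1.19, -2.22 and -0.92 in ND 3M and 0.32, -0.47 and 1.94 in HFD 3M. The 2 groups did not overlap, with HFD replicate 3 the highest of the 6. The difference was 2.04 ± 1.31 (adjusted p 1.00) and 1.37 without that array. A probe for another Il1rap transcript, well above background on 6 of 20 arrays, gave -1.09 ± 0.87, and the mean over the Il1rap probes 0.48.

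The other members overlapped between the diets after 3 months. Il1b, the pyrogenic cytokine of the family, differed by 0.10 ± 0.40 (95% interval -0.78 to 0.98). Its receptor Il1r1 differed by 0.29 ± 0.84, Il33, a nuclear alarmin of barrier cells, by 0.62 ± 0.93 and the antagonist Il1rn by -0.50 ± 0.69. A second Il1rn probe, on another transcript, gave 1.43 ± 0.80, the opposite sign, and a second Il33 probe gave 0.04 ± 1.49. Il1f8 was well above background on 1 of 3 HFD arrays and on 0 of 3 ND arrays, and its bounded levels gave no fold. The summed level of the macrophage and Langerhans cell markers, with 1 standing for an array's 75th percentile, was 150 to 188 on the ND 3M and 157 to 182 on the HFD 3M arrays. Its part in the member values was not tested. The summed level of 9 differentiating epidermis markers was 174 to 218 in ND 3M and 176 to 269 in HFD 3M.

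After 4 days of diet none of the 8 members passed (0 of all genes did). An unadjusted p below 0.05 was found for 0 of 8, against 817 of all genes. No member had HFD arrays all above the ND arrays, which 3.73% of all genes had. The median of the members was 0.33, with 5 of 8 above 0, against -0.05 over all genes. Il1b read -2.86, -2.43 and -2.97 in ND 4d and -1.72, -2.04 and -2.79 in HFD 4d. HFD replicates 1 and 2 were the highest of the 6 and replicate 3 fell among the ND arrays. The difference was 0.57 ± 0.40 (95% interval -0.31 to 1.45).

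Il1r1 read -1.75, -3.27 and -1.54 in ND 4d and 0.36, -0.28 and -2.70 in HFD 4d, so that 2 HFD arrays were above all ND arrays and 1 was among them. Its difference was 1.31 ± 0.84. Il1rap had 1.69 ± 1.31 and Il33 0.94 ± 0.93, both with overlapping groups. Without ND 4d replicate 2, on which Il33 was not well above background, these were 0.32 and -0.30. Il1rn stood at 0.09 ± 0.69, Il1r2 at -0.45 ± 0.64 and Il18 at -0.82 ± 1.13. Second probes had the opposite sign for Il33 (-0.24 ± 1.49) and Il1rn (-1.12 ± 0.80). They had the same sign for Il1rap (1.89 ± 0.87) and Il1r2 (-0.24 ± 1.70). Il1f8 was well above background on 1 of 3 ND and on 0 of 3 HFD arrays.

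**Figure D3:**
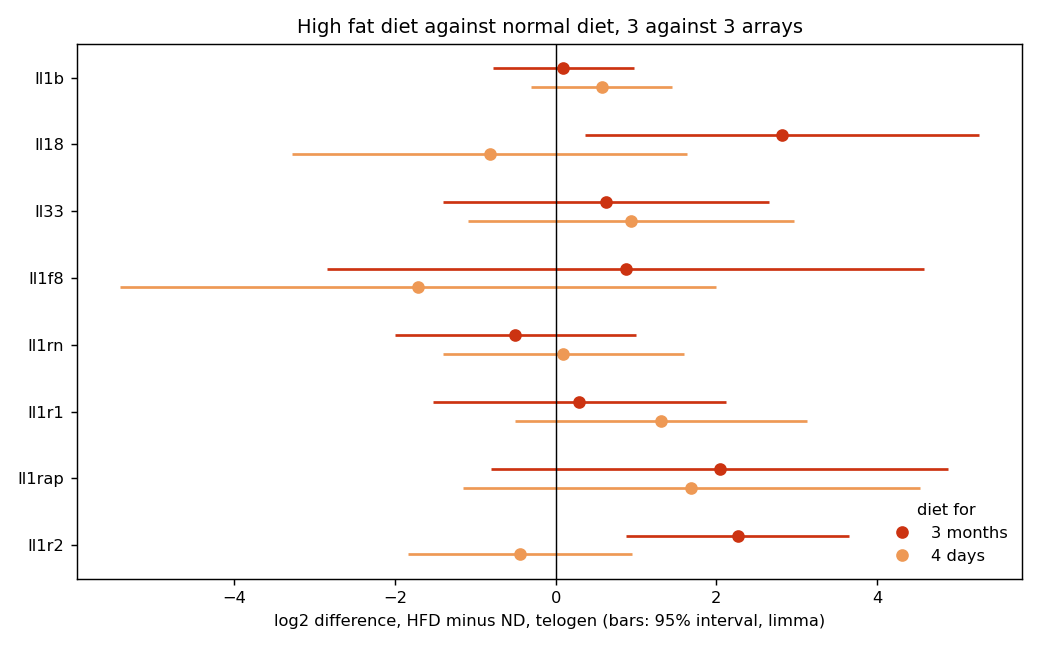
Log2 difference, HFD minus ND, in telogen (x axis) for the 8 members (y axis) after 3 months and after 4 days of diet. Points are limma estimates from 3 against 3 arrays and bars their 95% intervals; the 3-month intervals of Il18 (0.36 to 5.28) and Il1r2 (0.87 to 3.66) lie above 0 and the other 14 intervals contain 0, before any adjustment for multiple tests.

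Whether the diet difference itself changed with duration was tested as an interaction, in which duration goes with age (5 or 2 months) and slide. No member and 0 of all genes passed, while 2 of 8 members had an unadjusted p below 0.05, against 701 of the 18727 genes tested. Il1r2 had an interaction of 2.71 ± 0.91 (unadjusted p 0.0110, adjusted p 1.00), since its difference was above 0 after 3 months and below 0 after 4 days. For Il18 the interaction was 3.64 ± 1.60 (unadjusted p 0.0415). For the second Il1r2 probe it was 0.22 ± 2.41. With both durations averaged, again 0 members and 0 of all genes passed. An unadjusted p below 0.05 was found for 0 of 8 members, against 803 of all genes. The co-receptor Il1rap then differed by 1.87 ± 0.92 (unadjusted p 0.0659) and Il1r2 by 0.91 ± 0.45 (unadjusted p 0.0670). Their second probes gave 0.40 ± 0.61 for Il1rap and -0.13 ± 1.20 for Il1r2.

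In anagen each diet had a single array, so these values have no replicate check. The HFD and ND anagen arrays of a duration also lay on different slides, so diet and slide cannot be separated here. Il1r2 was at 1.49 on the HFD 3M array and at -3.41 on the ND 3M array. That gap of 4.90 was as large as or larger than the one of 99.0% of the genes tested on the same 2 arrays. Over 4 days the same gene differed by 0.83, from -1.45 in ND to -0.62 in HFD, which ranked at 67.5%. The second Il1r2 probe read 1.15 on the HFD 3M and -1.68 on the ND 3M anagen array, the same direction. Il1b was higher on the HFD than on the ND anagen array at both durations, by 2.06 after 3 months and 0.98 after 4 days, gaps at 86.4% and 72.7% of the genes tested. The brightest probe of Il1rn, the antagonist, was lower at both, by -1.44 and -2.90, gaps at 71.7% and 95.6% of the genes tested. Its second probe was lower on the HFD anagen array after 3 months (-4.62 against -1.64). After 4 days that probe was higher on the HFD array (-0.71 against -2.01). Il1r1 differed by 2.44 after 3 months and by -2.55 after 4 days.

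The aged arrays were set against both normal diet groups, and neither comparison called a member. Against ND 3M, 0.0641% of all genes passed, and no member had groups apart with aged higher, which 11.6% of all genes had. There 0 of 8 members had an unadjusted p below 0.05, against 2232 of all genes. Against ND 4d, 0.0374% of all genes passed. In that comparison 1 of 8 members, Il1r1, had an unadjusted p below 0.05, against 1470 of the 18727 genes tested. Its groups did not overlap, where 3.97% of all genes had aged higher in this way. Aged telogen arrays lay on a slide of their own, so among telogen arrays slide and age cannot be told apart.

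The receptor Il1r1 was at 0.28, 0.25 and -0.82 on the aged telogen arrays and at -1.75, -3.27 and -1.54 on the ND 4d arrays. All 3 aged arrays were higher. The difference was 2.09 ± 0.84 (unadjusted p 0.0281, adjusted p 0.565). Against ND 3M, whose arrays ranged from -2.21 to 0.69, it was 0.77 ± 0.84. On the aged anagen array Il1r1 was at -2.27, below all 3 aged telogen arrays.

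Il1f8 was well above background on 2 of 3 aged telogen arrays (-1.51 and -3.26, with -6.69 on the third) and on 0 of 3 ND 3M arrays (-5.89, -7.51 and -6.82). The mean of aged stood 3.67-fold above that of ND 3M. Each ND array was taken at its lowest signal called well above background, or at its own if higher. The third aged array entered at its own signal, so this is no strict bound, and it overlapped the ND 3M arrays. The adjusted limma p was 0.523. Against ND 4d the Il1f8 difference was 1.16 ± 1.71 (adjusted p 0.934). There ND 4d replicate 3, at -0.48, lay above every aged telogen array. Il18 differed from ND 3M by 1.58 ± 1.13, Il1r2 by 0.82 ± 0.64, Il1b by 0.41 ± 0.40 and Il1rn by -0.90 ± 0.69. The second probes of Il1r2 and Il1rn had the opposite sign, at -1.68 ± 1.70 and 0.54 ± 0.80. Without ND 3M replicate 2, on which Il18 was not well above background, the Il18 difference was 0.66. Against ND 4d, Il33 differed by 1.31 ± 0.93 and Il1r2 by 1.01 ± 0.64. Without ND 4d replicate 2, on which Il33 was not well above background, these were 0.07 and 0.35. The second probes gave -0.18 ± 1.49 for Il33 and -0.24 ± 1.70 for Il1r2.

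Anagen against telogen was the only comparison in which a member passed. Of the 7 members that the telogen arrays alone would have let into the test, 1 passed: Il1b rose in anagen. Over all genes 6.11% passed in either direction and 2.81% were higher in anagen. Il1f8 entered the test only through its anagen arrays, where it is high, so its p is not used and the gene is given as a description. For the brightest probes, the antagonist and the receptors lay between -0.89 and 0.41 and Il1b, Il18 and Il33 above that range. Second probes of Il1rn and Il1r2 lay above it too, as given below. So did that of Il1rap, which only its anagen arrays let into the test. Without Il1f8 the middle value of the 7 members was 0.41, that of Il1rn, against a median of -0.16 over all genes. The median over all genes goes to 0.06 when arrays are scaled by their median.

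Il1b read -3.01 on the ND 3M, -0.96 on the HFD 3M, -2.02 on the ND 4d, -1.04 on the HFD 4d and -2.06 on the aged anagen array. The 15 telogen arrays ran from -3.75 to -1.72 with a median of -2.97. In all 5 conditions the anagen array was above each of its 3 telogen arrays, by 0.22 (ND 3M) to 2.18 (HFD 3M) over their mean, although the pooled ranges overlap. The fitted difference was 1.00 ± 0.28 (limma adjusted p 0.0423). A second Il1b probe was well above background on only 6 arrays and was not tested.

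This Il1b call lies near the threshold. On the 3 conditions whose anagen and telogen arrays share a slide, the differences were 0.22, 0.73 and 0.75, and with slide as a block the value was 0.57 (adjusted p 0.266). Leaving out 1 array at a time, the call held in 6 of 20 cases: without ND 3M telogen replicate 2, HFD 3M replicate 3, ND 4d replicate 2, HFD 4d replicate 1, aged replicate 2 or the ND 3M anagen array. In the other 14 cases the adjusted p ran from 0.0510 to 0.121, and without the HFD 3M anagen array the difference was 0.71.

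Il1f8 read -2.52, -5.78, -0.83, -0.37 and 0.60 on the anagen arrays in the same order, the HFD 3M array being not well above background. Telogen arrays ran from -7.51 to -0.48 with a median of -6.69. In the other 4 conditions the anagen array was above the telogen mean, and in 3 of them it was above all 3 telogen arrays. In HFD 3M the anagen array and 2 of 3 telogen arrays were not well above background. The remaining telogen array, replicate 2, was so, at -3.93, and this condition shows no rise in anagen. In ND 3M and HFD 4d, where 0 of 3 telogen arrays were well above background, the anagen level was at least 9.03-fold and at least 24.0-fold higher. The fitted difference of 3.84 ± 1.06 rests on 11 telogen arrays with signals not well above background and is no measure of size. Its p is not given, because only the anagen arrays let the gene into the test.

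Il18 and Il33 had differences in the same direction that did not pass. The Il18 levels in anagen were 0.36, -0.80, -1.77, -0.64 and 1.79, against -5.88 to -0.37 (median -2.41) in telogen. Anagen was above the telogen mean in all 5 conditions and above all 3 arrays in 3. The difference was 2.40 ± 0.75 (adjusted p 0.0705). For Il33 the anagen levels were -1.43, -0.53, -1.36, -4.04 and 0.59, with the HFD 4d array the exception below its telogen mean. The difference was 1.70 ± 0.63 (adjusted p 0.124), and 1.15 ± 0.92 for the second Il33 probe. Over all genes 9.24% had anagen above the telogen mean in all 5 conditions, as Il1b and Il18 did.

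The brightest probes of the receptors and the antagonist did not pass. Il1r1 was below its telogen mean in 3 of 5 conditions and above it in 2 (-0.89 ± 0.60, adjusted p 0.385). Il1r2 was likewise higher in 2 of 5, from -2.67 in ND 3M to 1.67 in aged (-0.16 ± 0.50), a sign that turned to 0.06 with median scaling; its second probe gave 1.43 ± 1.00. Il1rap had 0.16 ± 0.78. The probe for its other transcript, with 6 of 20 arrays well above background, was let into the test only by its anagen arrays. Its fitted value of 1.96 ± 0.59 is given as a description, without its p. Il1rn, the antagonist, was higher in 4 of 5 conditions (0.41 ± 0.47, adjusted p 0.622), and its second probe, on another transcript, gave 1.497 ± 0.70 (unadjusted p 0.0484).

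**Figure D4:**
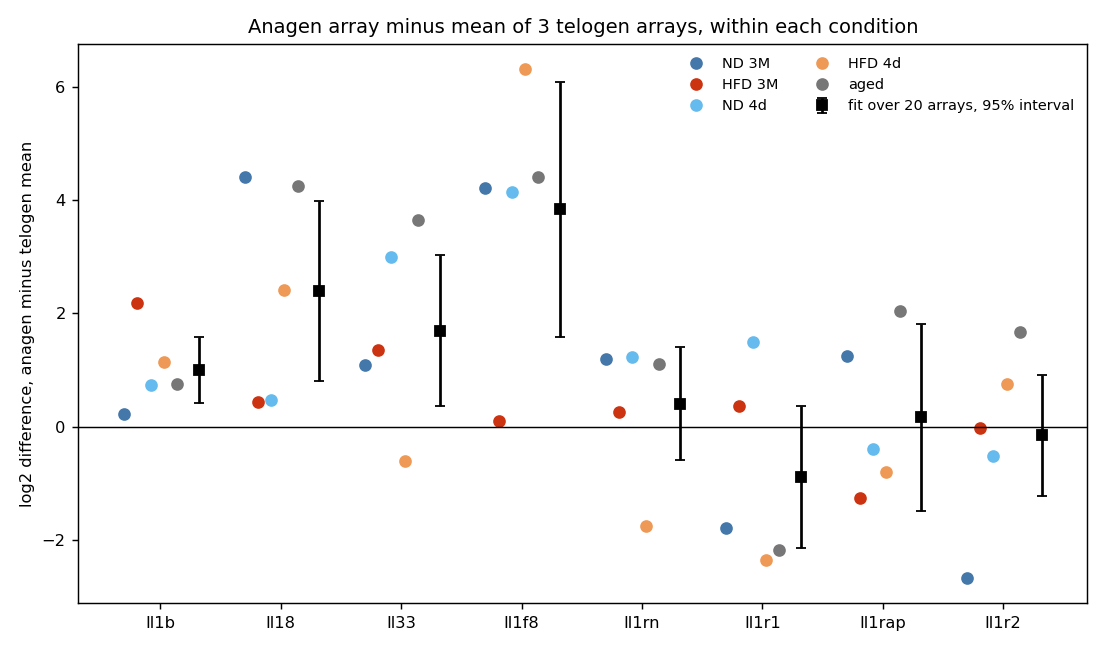
Log2 difference between the single anagen array and the mean of the 3 telogen arrays of the same condition (y axis) for the 8 members (x axis). Coloured points are the 5 conditions and black squares the limma estimate over 20 arrays with its 95% interval. Il1b and Il18 have 5 points above 0, and Il1r1, Il1rap and Il1r2 have 2. In HFD 3M the Il1f8 point rests on an anagen array and 2 of 3 telogen arrays not well above background.

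Markers of other cells also moved with phase. The summed level of 8 upper follicle and sebaceous gland markers was 96.4 to 137 on the anagen and 55.9 to 94.4 on the telogen arrays, with no overlap. Fibroblast markers summed to 1.01 to 2.45 in anagen and 2.31 to 9.99 in telogen. Of 6 endothelial markers, Cdh5 and Kdr were well above background on 0 arrays, Tek on 3, Emcn on 4, Pecam1 on 17 and Cldn5 on 19. Their sum was 0.95 on the ND 3M anagen array, 0.11 to 0.25 on the other anagen arrays and 0.11 to 0.24 in telogen. The median was lower in anagen (0.125 against 0.195). Macrophage and Langerhans cell markers summed to 102 to 184 in anagen and 109 to 220 in telogen, overlapping and with the lower median in anagen (120 against 157). Stem cell markers summed to 298 to 429 in anagen and 303 to 598 in telogen. The part of these cells in the member values was not tested, and in bulk RNA fewer cells of a type and less RNA per cell cannot be told apart.

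The wider pathway was read from 67 further genes in 5 lists, of which 59 were tested. Il36rn could not be matched to a gene symbol, so no probe was assigned to it. In each of the 6 telogen comparisons 0 of 59 passed, and their median lay between -0.02 and 0.03. Casp1, the protease that matures Il1b and Il18, read 0.29, -2.50 and -4.54 in ND 4d and -0.41, -0.51 and 1.26 in HFD 4d. The groups overlapped through ND replicate 1, and the difference was 2.36 ± 1.00 (unadjusted p 0.0349, adjusted p 1.00). After 3 months Casp1 differed by 0.61 ± 1.00. The inflammasome sensor Nlrp3 differed by 0.17 ± 0.51 after 3 months and -0.01 ± 0.51 after 4 days, and the adaptor Myd88 by -0.28 ± 1.20 and 0.70 ± 1.20. The Il18 receptor Il18r1, well above background on 13 arrays, differed by -1.79 ± 1.25 and 1.22 ± 1.25. Il1rl1, the Il33 receptor, was well above background on 7 arrays and differed by -0.30 ± 0.38 and -0.29 ± 0.38. Il1a was well above background on 3 of 20 arrays, 2 of them aged, and was not tested.

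Between anagen and telogen Pycard, Map3k7 and Il1f6 passed as higher and Nfkbia as lower. S100a8 was let into the test only by its anagen arrays, where it is high, and is given as a description. With S100a8 counted, 5 of the 59 passed (8.47%), beside 6.11% of all genes under the same rule. Because that count includes S100a8, no excess over all genes is read from it. From 12 tested genes of inflammasome and maturation, Pycard, the adaptor that links sensors to caspase-1, rose by 1.00 ± 0.18 (adjusted p 0.00357). Its anagen levels of 2.69, 2.78, 2.65, 2.69 and 3.49 all lay above its 15 telogen arrays (1.28 to 2.19). Casp1 had 1.57 ± 0.58 and did not pass (adjusted p 0.123).

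Of 21 signal transduction genes, Map3k7, the kinase that relays the receptor signal to NF-kappaB and the stress kinases, rose by 1.23 ± 0.30 (adjusted p 0.0211). Its anagen levels were 2.40, 2.78, 3.28, 2.98 and 3.04, against 0.74 to 2.76 in telogen, so the ND 3M anagen array lay within the telogen range. From the 3 tested ligands, Il1f6, the Il36a cytokine, rose by 2.59 ± 0.73 (adjusted p 0.0466). It was well above background on 14 arrays, 9 of 15 in telogen and 5 of 5 in anagen. The size of its difference thus rests partly on telogen signals not well above background. Its anagen array was above all 3 telogen arrays in 4 of 5 conditions, and its call lasted in 12 of 29 alternative settings. With slide as a block Il1f6 did not pass. None of the 6 tested receptors and binding proteins passed.

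Of the 17 tested targets that interleukin-1 induces, Nfkbia passed as lower, and S100a8 is described without a test. S100a8, an alarmin of stressed keratinocytes and neutrophils, was well above background on 5 of 5 anagen arrays and on 1 of 15 in telogen. It read -4.55, -0.39, -0.89, -4.18 and 1.30 in anagen. The telogen arrays lay between -8.14 and -6.11, except for HFD 4d replicate 1 at -1.80. In the 4 conditions with 0 telogen arrays well above background the anagen level was at least 2.24-fold (ND 3M) to at least 92.8-fold (aged) higher. The fitted difference of 5.12 ± 0.93 is no measure of size, and its p is not given, because only the anagen arrays let the gene into the test. Of the other 6 neutrophil markers Cxcr2 and Csf3r were well above background on all 20 arrays, Mmp9 on 15, Ngp on 11, S100a9 on 10 and Retnlg on 3. The summed neutrophil list was 47.2 to 72.8 in anagen and 55.4 to 87.7 in telogen. Nfkbia, the NF-kappaB inhibitor that the pathway itself induces, fell by 1.08 ± 0.25 (adjusted p 0.0180). In anagen it read 2.81, 3.51, 2.41, 1.67 and 2.94, against 3.15 to 4.66 in telogen, and only the HFD 3M anagen array lay within the telogen range. Targets had a median of 0.19 with 10 of 17 above 0. Pycard passed in 30 of 30 alternative settings, and Map3k7 and Nfkbia in 26 of 30 each. Neither Map3k7 nor Nfkbia passed with slide as a block, nor without the ND 4d or the HFD 4d anagen array. Map3k7 also did not pass without the aged anagen array, and Nfkbia with median scaling.

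**Figure D5:**
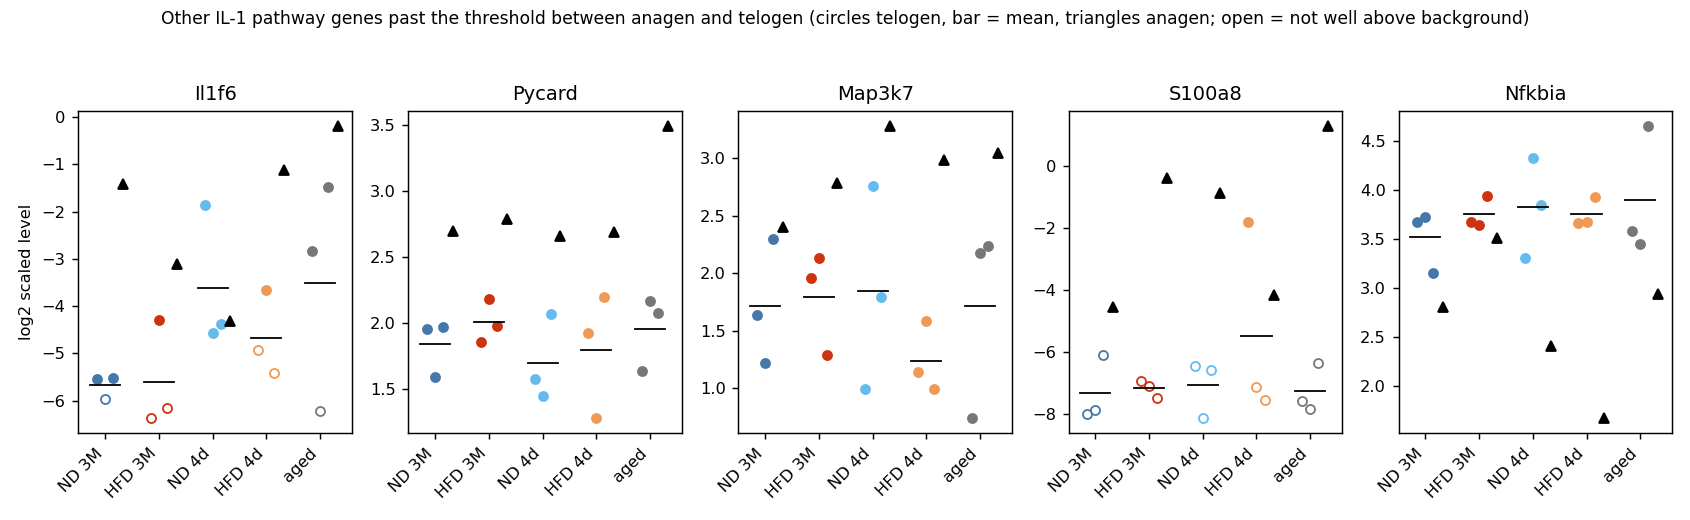
Log2 scaled level (y axis, each gene on its own scale) by condition (x axis) of 5 other pathway genes. Il1f6, Pycard, Map3k7 and Nfkbia passed between anagen and telogen, and S100a8, let into the test only by its anagen arrays, is given as a description. Circles are telogen arrays, bars their mean, triangles anagen arrays, and open symbols are not well above background; all 5 Pycard triangles (2.65 to 3.49) lie above all telogen circles (1.28 to 2.19), and 4 of the 5 Nfkbia triangles lie below all of theirs.

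Likeness was described over the 15 telogen arrays for the 5 members well above background everywhere, among 12031 named genes measured on all arrays. The arrays share slides and conditions, and the values are a description with no test. The nearest were Slc52a2 (r = 0.84) and Sec1 (0.79) for Il1b, Nudt1 (0.85) and Atg2a (0.80) for Il1rn, and Ascc3 (0.81) and Tle3 (0.76) for Il1r1. For Il1rap they were Zfp608 (0.88) and Phrf1 (0.82), and for Il1r2 Egr3 (0.83) and Smarcc1 (0.81). Among the members themselves the correlations of these 5 ran from -0.46, for Il1b with its antagonist Il1rn, to 0.37, for Il1rn with Il1rap.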

How the data were processed

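Each of 20 samples was hybridised to 1 Agilent array. The deposited scanner files, from Feature Extraction 10.7.1.1 per the file headers, give a background-subtracted intensity for each spot that is not scaled between arrays. The deposited series table holds a linear signal per probe, which matched the processed intensity divided by the array's 75th percentile (94.1% of values within 5%), uncentred, with column medians of 0.088 to 0.168. Spots marked as outliers were set to missing, and intensities were averaged per probe and put on the log2 scale less that percentile. Probes were named through RefSeq accessions: 32994 of 56605 matched 1 symbol. Testing required a probe well above background on every array of some telogen group or on at least 3 anagen arrays, and a gene's brightest tested probe was used.

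One limma model (limma 3.58.1 in R 4.3.3) covered the 15 telogen arrays and another, adjusted for condition, compared the phases on 20 arrays, two-sided, with Benjamini-Hochberg adjustment over 18727 genes and a threshold of 0.05. The scripts were tested on simulated data. All 8 members are named whatever their p, list genes where they passed, a few key pathway genes whatever their p, and the 2 genes most like each member. Members and lists were chosen with earlier results of these data known. Alternatives were normexp, quantile, median and detected-probe scaling, 2 other filters, the mean over probes, the series table, a trended robust eBayes, only the arrays compared, replicate and slide blocks, and leaving out each array.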

Additional observations from a re-analysis of the deposited data

How the results depend on the processing

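No member passed in any of the 6 telogen comparisons under any alternative, while the count of all genes there ran from 0 to 24. In anagen against telogen the count of members past the threshold, Il1f8 included, was 2 in the reported fit, 0 without a filter on dim probes, 1 with only probes well above background on all 20 arrays, 1 with a trended robust eBayes and 0 with a slide block. Leaving out 1 array at a time gave 0 to 2. The count of all genes was 1145, 677 with the slide block and 555 to 2056 without 1 array. Median scaling turned the split of all genes from 526 higher and 619 lower to 653 and 336. Il18 passed in anagen with normexp (1.97, adjusted p 0.0470). Same-numbered telogen arrays did not deviate together (correlations -0.04 to 0.06), so the numbers were not taken as pairs; with a replicate block 0 members passed and the Il1r2 difference after 3 months stayed at 2.27 (adjusted p 1.00).

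Of 56 member differences, 26 changed sign under some alternative, none of them a called one; the cause was not tested. With the mean over probes HFD against ND gave Il1rn 0.46 after 3 months and -0.52 after 4 days. The interaction gave Il1rn 0.98 and Il1rap -1.31. Aged against ND 3M gave Il1r2 -0.43, aged against ND 4d Il1rn 0.37 and anagen Il1r2 0.64. With the slide block, which for aged rests on the single anagen arrays, aged against ND 3M gave Il1b -1.63, Il1rap 3.98, Il1rn 2.94 and Il33 4.51. Against ND 4d it gave Il18 1.34, Il1f8 -0.83 and Il1rn 2.84. Median scaling gave Il1rn -0.055 after 4 days and Il1r2 0.056 in anagen. Normexp gave the Il33 interaction as 0.14 and Il1b as 0.064 against ND 4d, where the percentile over detected probes gave Il1b 0.051 and Il1rn 0.047.

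Without 1 array, HFD against ND 3M ranged from -0.15 to 0.41 for Il1b, -0.10 to 1.49 for Il1f8, -0.38 to 1.07 for Il1r1 and -1.10 to 0.16 for Il1rn. After 4 days the range was -1.71 to 0.16 for Il18, -2.84 to 0.54 for Il1f8, -1.10 to 0.064 for Il1r2, -0.28 to 0.62 for Il1rn and -0.30 to 1.73 for Il33. The interaction ran from -0.83 to 1.72 for Il1rap, -1.20 to 0.070 for Il1rn and -1.11 to 0.92 for Il33, and the averaged diet difference from -0.99 to 0.70 for Il1f8 and -0.50 to 0.13 for Il1rn. Aged against ND 3M ran from -0.74 to 0.76 for Il1rap and -1.11 to 0.076 for Il33. Against ND 4d it ran from -1.11 to 0.64 for Il18, -0.43 to 0.20 for Il1b, -1.09 to 1.46 for Il1rap and -0.50 to 0.41 for Il1rn. Anagen ran from -0.61 to 0.47 for Il1r2 and -0.31 to 0.52 for Il1rap.

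The number of arrays limits the precision: the median half-width of a 95% interval was 1.15 in log2 for a telogen comparison and 0.75 for anagen. Signals not well above background, as for Il1f8 on most telogen arrays, carry no order.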
